A study of Mus musculus with 96 samples.

Results

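RNA-seq was performed in Tet.RYBP ESCs, a derivative of the J1 mouse embryonic stem cell (ESC) line whose labelled genotype is Tet on.RYBP, that is, a line in which DOX switches on a Rybp transgene. There were 4 of the series' 96 samples: 2 replicates that had received vehicle and 2 that had received DOX. Both groups carry the transgene and, per the labels, grew in serum medium with LIF at 1000 U/mL. The 4 columns of the count table are named NTC and DOX, and their assignment to these samples was inferred from the table's name and checked against Rybp and Stat3. The dose and duration of DOX, the promoter of the transgene and the number of clones are not given in the sources used here, and no line without the transgene received DOX, so RYBP and DOX itself cannot be told apart. Nothing in the labels says that the replicates were separate cultures, so the p-values measure the spread between these samples only.

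RYBP (RING1 and YY1 binding protein) is a subunit of variant Polycomb repressive complex 1 (PRC1), in which it takes the place that a CBX protein holds in canonical PRC1 and stimulates the RING1B ubiquitin ligase that marks histone H2A. YAF2 is its close paralogue. In ESCs the variant complexes differ by their PCGF subunit and occupy the CpG-rich promoters of developmental genes and, in the form with PCGF6, MGA and L3MBTL2, of germ cell genes.

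The libraries held 31465829 to 35897734 counts on genes. Of 37620 genes in the table, 14937 had enough counts to be tested with edgeR's quasi-likelihood test, and a gene was called when its Benjamini-Hochberg adjusted p was under 0.05. ESC identity was checked with 8 markers, whose summed level was 5481 to 5614 CPM (a gene's counts relative to the TMM-scaled library total) in every library. Of 12 fibroblast feeder markers, 8 were too low to be tested, with at most 19 counts in any library and 4 at 0 in all libraries, and Col1a1 stood at 1.84 to 3.39 CPM. The summed level of the 4 tested feeder markers went from 1191 and 1173 CPM to 1392 and 1364 CPM, most of it Fn1, the fibronectin gene, which rose by 0.27 on the log2 scale. Vim, the vimentin gene, fell by 0.42, and both were called without each library in turn.

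Rybp was the first gene examined, as the check of the labels. It lies on chromosome 6 (chr6:100178560-100237435 in mm9, minus strand). The vehicle libraries had 135 and 145 CPM of Rybp and the DOX libraries 522 and 535 CPM. Both DOX libraries were thus far above both vehicle libraries, a 3.77-fold rise (log2 fold change 1.91 ± 0.05 SE, edgeR adjusted p = 6.98e-24), and the rise was called without each library in turn. Counts per gene do not separate transcripts of the transgene from those of the endogenous gene.

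Stat3, whose product transmits the LIF signal, was not raised. Its levels were 183 and 178 CPM with vehicle and 168 and 166 CPM with DOX (log2 fold change -0.11 ± 0.06, edgeR adjusted p = 0.281). The paralogue Yaf2 was low, at 3.05 and 3.1 CPM with vehicle and 2.21 and 2.87 CPM with DOX, and was not called (edgeR adjusted p = 0.695). Rybp high and Stat3 not high with DOX is the pattern that the labels of this line call for.

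Across the transcriptome, DOX was followed by a limited response. In all, 899 genes were called, 6.02% of those tested. Of these, 542 rose (3.63%) and 357 fell (2.39%), and the median log2 fold change over all genes tested was -0.00. Most changes were small, since 334 of the rises and 192 of the falls were under 0.5 on the log2 scale, and 82 rises (0.549% of genes tested) and 53 falls (0.355%) reached a log2 fold change of at least 1. The groups did not overlap for any called gene, beside 48.1% of all genes tested. A fit without 1 library has 1 library in that group, so its spread rests on the 2 libraries of the other group. The count moved with the libraries used: 406 genes were called without DOX replicate 1, 409 without DOX replicate 2, 1566 without vehicle replicate 1 and 1467 without vehicle replicate 2. Called in the same direction in each of these fits and in the fit of all libraries were 151 rises (1.01% of genes tested) and 82 falls (0.549%).

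**Figure D1:**
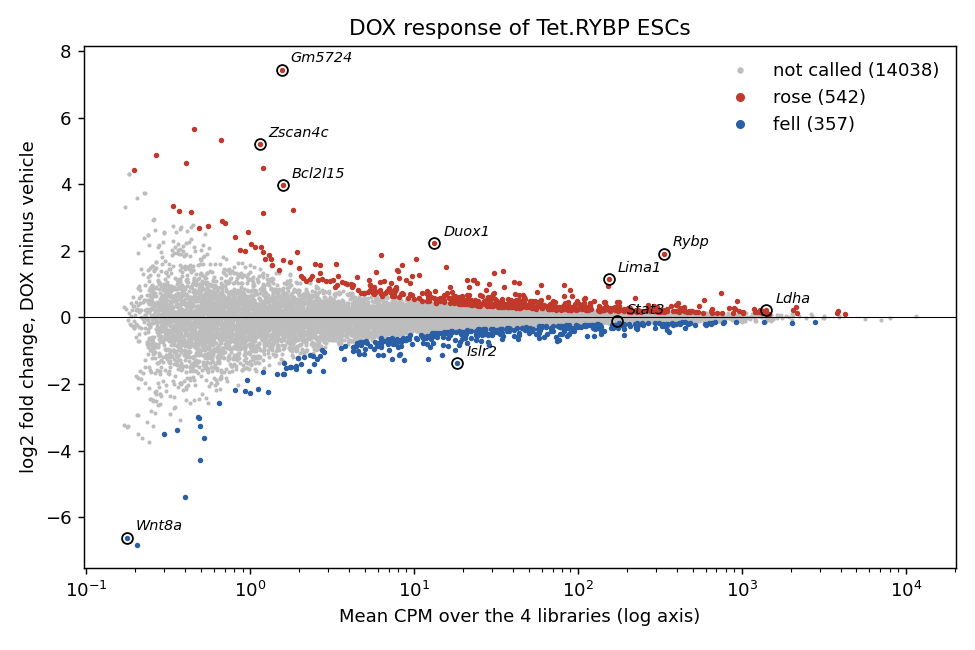
Log2 fold change of each of the 14937 tested genes, DOX minus vehicle, against its mean CPM on a log axis, with called rises in red, called falls in blue and other genes in grey. Rybp, at a log2 fold change of 1.91, stands above every other gene of its abundance, and the largest fold changes belong to genes of a few CPM or less.

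Genes were named by a rule: the 12 largest rises and the 12 largest falls among called genes with a mean of at least 5 CPM in the higher group and groups that do not overlap, leaving out predicted models. All 24 were called without each library in turn. The rise of highest fold among them was that of Duox1, ahead of Rybp. The product of Duox1 is an NADPH oxidase that releases hydrogen peroxide. Duox1 went from 4.79 and 4.55 CPM to 22 and 21.8 CPM (4.68-fold, log2 fold change 2.23 ± 0.15, edgeR adjusted p = 1.45e-12).

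Duox1 has neighbours that rose with it. Duoxa1, the maturation factor that the oxidase needs, starts 1942 bases away on the other strand of chromosome 2, and went from 3 and 4 counts to 68 and 84 counts (log2 fold change 4.48 ± 0.63, edgeR adjusted p = 8.15e-06). On the other side Shf, an adaptor protein gene that ends 920 bases beyond Duox1, went from 18.2 and 16.5 CPM to 45.6 and 42.1 CPM (log2 fold change 1.34 ± 0.10, edgeR adjusted p = 6.95e-11). Sord, the sorbitol dehydrogenase gene 36851 bases from Duoxa1, went from 23.1 and 24.7 CPM to 35.7 and 33.5 CPM (log2 fold change 0.53 ± 0.10, edgeR adjusted p = 0.000817). Within 500 kb of Duox1, 19 genes were tested. The 4 that rose were Duox1 itself, which set the window, and these neighbours, beside 3.63% rising among all genes tested. None fell. Duox2, between Sord and Duoxa1, was not called, at means of 0.24 CPM with vehicle and 0.38 CPM with DOX (edgeR adjusted p = 0.764). Duoxa1 passed the filter on low counts only through the DOX libraries, where it was high. This window was chosen after the values were seen.

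The promoter window of Duoxa1 is shown because in other ESC lines of the series it carried the only peaks of the pair: H3K4me3 at 14.7-fold enrichment and RING1B at 9.53-fold in shEV ESCs and 9.29-fold in uninduced Tet.Rybp.Stat3 ESCs, while no start site of Duox1 had one. The window runs from 250 bases before to 50 after the RefSeq start (chr2:122139417-122139716, mm9, minus strand), 5′ to 3′, with each CG pair, the letters that CpG-binding subunits of PRC1 read, in capitals.

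Duoxa1: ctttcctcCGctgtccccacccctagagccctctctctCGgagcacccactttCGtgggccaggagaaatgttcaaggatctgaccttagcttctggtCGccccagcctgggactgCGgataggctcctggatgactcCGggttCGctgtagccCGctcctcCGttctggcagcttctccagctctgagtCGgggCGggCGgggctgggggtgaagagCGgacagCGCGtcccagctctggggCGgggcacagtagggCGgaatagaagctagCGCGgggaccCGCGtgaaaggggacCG

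It holds 22 CG pairs, beside a median of 18 (quartiles 9 and 27) over windows of the same length at the start sites of 14912 tested genes.

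Among the other large rises were transcription factors of the trophoblast and surface ectoderm. Tfap2a (listed as Tcfap2a), an AP-2 factor, went from 4.6 and 4.72 CPM to 15.0 and 16.8 CPM (log2 fold change 1.77 ± 0.16, edgeR adjusted p = 2.39e-09). Ascl2, a basic helix-loop-helix factor needed in the placenta, went from 4.10 and 4.37 CPM to 10.8 and 14.6 CPM (log2 fold change 1.59 ± 0.18, edgeR adjusted p = 2.71e-07). Their start sites carried high RING1B peaks in shEV ESCs, at 49.3-fold for Tfap2a and 32.9-fold for Ascl2. With Tfap2c (listed as Tcfap2c), which went from 25.1 and 21.7 CPM to 37.4 and 35.8 CPM (log2 fold change 0.64 ± 0.10, edgeR adjusted p = 8.35e-05), 3 of 12 tested trophectoderm genes rose and none fell. All 3 were called without each library in turn, and the median log2 fold change of the list was 0.09.

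Other named rises were those of Cdh3, Gpr56 and Kdr. Cdh3, which encodes P-cadherin, went from 20.2 and 18.3 CPM to 50.9 and 49.6 CPM (log2 fold change 1.38 ± 0.10, edgeR adjusted p = 8.08e-12). Gpr56, an adhesion G protein-coupled receptor now called Adgrg1, went from 7.70 and 8.46 CPM to 24.3 and 21.9 CPM (log2 fold change 1.51 ± 0.14, edgeR adjusted p = 1.37e-09). Kdr, the VEGF receptor that marks early mesoderm, went from 2.38 and 4.17 CPM to 8.83 and 7.92 CPM (log2 fold change 1.36 ± 0.23, edgeR adjusted p = 0.000122). Kdr was the 1 gene called among 10 tested genes of the primitive streak and mesoderm, whose median log2 fold change was -0.31.

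The remaining large rises were those of Rapgef4, a cAMP-activated exchange factor, from 2.66 and 2.78 CPM to 10.2 and 9.61 CPM, of the DNA sensor gene Aim2, from 4.40 and 4.14 CPM to 13.3 and 9.67 CPM, of the adaptor subunit gene Ap3b2, from 5.18 and 3.56 CPM to 10.8 and 12.3 CPM, and of Spink10, from 1.41 and 1.91 CPM to 5.79 and 4.28 CPM. Their log2 fold changes ranged from 1.40 for Ap3b2 to 1.86 for Rapgef4. In each the lower DOX library was above the higher vehicle library.

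The 12 named falls had log2 fold changes of -1.38 to -1.01. Islr2, a membrane protein gene of developing neurons, went from 27.2 and 25.9 CPM to 10.2 and 10.3 CPM (log2 fold change -1.38 ± 0.12, edgeR adjusted p = 1.41e-09). Ccnd2, the cyclin D2 gene, went from 20.9 and 19.6 CPM to 8.38 and 10.1 CPM (log2 fold change -1.13 ± 0.14, edgeR adjusted p = 8.93e-07). The type IV collagen gene Col4a2 fell by 1.14 on the log2 scale, to 3.46 and 4.05 CPM with DOX. Col4a1, which shares a promoter region with Col4a2 and is not among the 12, fell by 0.77, to 17.9 and 13.2 CPM.

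She, an adaptor protein gene, went from 15.8 and 18.3 CPM to 7.81 and 6.49 CPM, and Dgkk, a diacylglycerol kinase gene, from 10.2 and 10.4 CPM to 3.68 and 4.99 CPM. Abtb2, Tub, Tmem132d, Atcay, Mark1 and Ociad2 fell by 1.08 to 1.24 on the log2 scale. The last of the 12 was mt-Tp, a mitochondrial tRNA, from 5.40 and 5.94 CPM to 2.66 and 2.96 CPM, and its reads cannot be told apart from those of overlapping mitochondrial transcripts if counting ignored strand.

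A promoter window of Islr2 is shown as that of the fall of highest fold, with a RING1B peak over a start site at 23.9-fold enrichment in shEV ESCs and 27-fold in uninduced Tet.Rybp.Stat3 ESCs (chr9:58052077-58052376, mm9, minus strand, from RefSeq, CG pairs in capitals). It is the first of 3 RefSeq start windows of Islr2 and holds 14 CG pairs, while the others hold 6 and 11.

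Islr2: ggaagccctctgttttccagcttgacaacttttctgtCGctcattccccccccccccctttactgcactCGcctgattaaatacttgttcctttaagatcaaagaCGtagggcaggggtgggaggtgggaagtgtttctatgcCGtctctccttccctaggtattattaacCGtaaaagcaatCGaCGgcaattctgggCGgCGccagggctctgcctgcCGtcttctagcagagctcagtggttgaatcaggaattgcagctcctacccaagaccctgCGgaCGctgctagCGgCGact

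**Figure D2:**
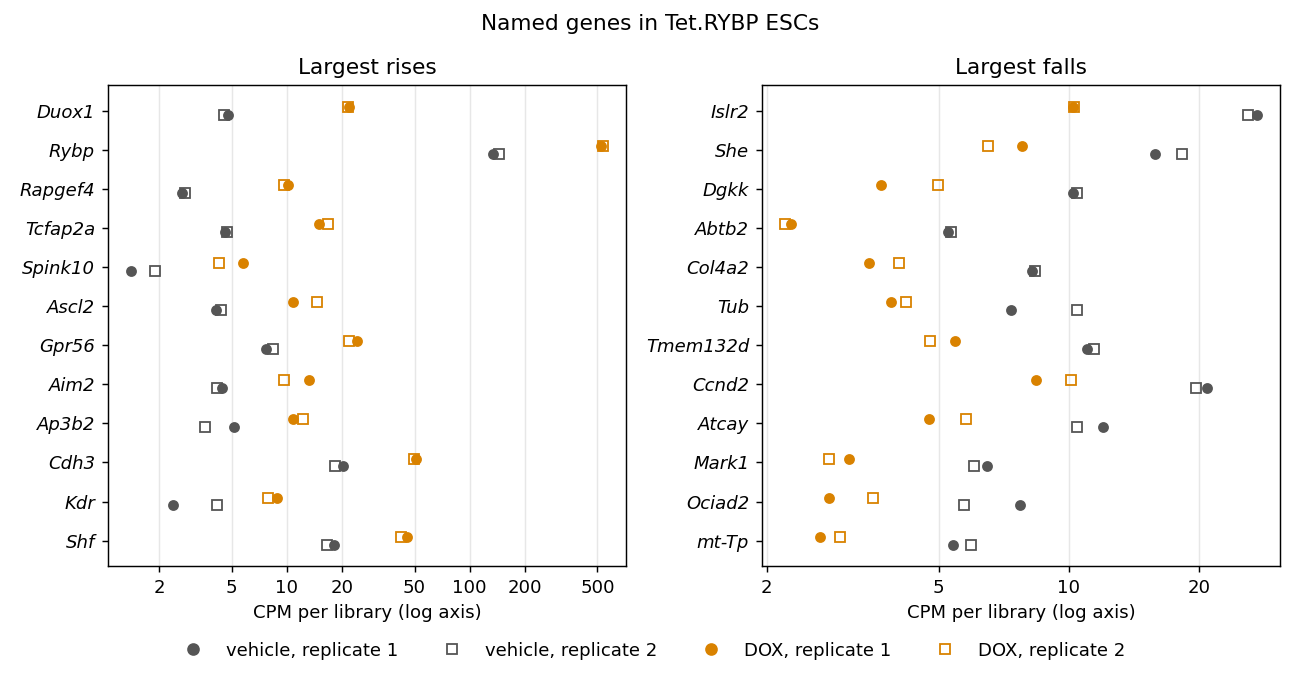
CPM on a log axis in each library for the 12 largest rises and the 12 largest falls that the rule named, with vehicle in grey and DOX in orange, replicate 1 filled and replicate 2 open. In every row both DOX libraries lie on the same side of both vehicle libraries, as for Duox1 at 22 and 21.8 CPM against 4.79 and 4.55 CPM.

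Some low genes belong to the two-cell-like state, a rare condition of ESCs in which transcripts of the early embryo such as the Zscan4 family reappear. Zscan4c, a zinc finger gene of that family, had 3 and 1 counts with vehicle and 86 and 60 counts with DOX (log2 fold change 5.22 ± 0.72, edgeR adjusted p = 5.96e-06), and was called without each library in turn. Zscan4f had 3 and 9 counts with vehicle and 28 and 55 with DOX (log2 fold change 2.83, edgeR adjusted p = 0.0158). Zscan4e had 17 and 14 counts with vehicle and 43 and 85 with DOX (log2 fold change 2.12, edgeR adjusted p = 0.0114).

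Of 21 genes of this list in the table, 13 were under the filter, with at most 20 counts in any library. Of the 8 tested, these 3 and Gm4340 rose, and Usp17le, Zscan4d, Ddit4l and Eif1a were not called. Zscan4c, Zscan4f, Gm4340 and Usp17le passed the filter only through the DOX libraries, where they were high, so the count among tested members was partly set by the filter. Without DOX replicate 2, the adjusted p was 0.355 for Zscan4f, 0.365 for Zscan4e and 0.13 for Gm4340, and without vehicle replicate 1 it was 0.0759 for Zscan4f. In bulk RNA a few cells with much Zscan4 RNA and many cells with little cannot be told apart.

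The promoter windows of Zscan4c (chr7:11590844-11591143, plus strand) and Zscan4f (chr7:11983014-11983313, plus strand) are shown because the copies are nearly the same sequence, so that the counting may have divided or dropped reads among them. Aligned with a shift of 23 bases, 275 of 277 positions are identical, and the 2 that differ are in capitals (mm9, RefSeq starts, 5′ to 3′).

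Zscan4c: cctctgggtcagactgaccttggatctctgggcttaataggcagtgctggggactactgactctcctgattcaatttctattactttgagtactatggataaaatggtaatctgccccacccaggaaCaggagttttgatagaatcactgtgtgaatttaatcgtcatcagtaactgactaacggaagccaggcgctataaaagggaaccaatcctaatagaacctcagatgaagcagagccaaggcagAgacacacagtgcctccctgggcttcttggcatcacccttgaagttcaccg

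Zscan4f: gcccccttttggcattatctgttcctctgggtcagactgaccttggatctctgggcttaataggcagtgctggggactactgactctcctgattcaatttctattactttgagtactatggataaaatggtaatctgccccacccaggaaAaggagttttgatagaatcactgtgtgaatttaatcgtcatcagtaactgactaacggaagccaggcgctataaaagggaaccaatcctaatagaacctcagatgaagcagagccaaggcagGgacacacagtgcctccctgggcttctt

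No start site of either gene had a peak of H3K4me3, H3K27ac, WDR5, STAT3 or RING1B in the lists examined.

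Other genes went from almost nothing to a clear signal and were singled out after their values were seen. Gm5724, a predicted gene on chromosome 6, had 0 and 1 counts with vehicle and 104 and 100 counts with DOX, a ratio of 218 with an exact 95% interval from 38.7 to 8650 for counting error alone. Bcl2l15, a BCL2 family gene on chromosome 3, had 5 and 8 counts with vehicle and 100 and 96 with DOX (log2 fold change 3.99 ± 0.52, edgeR adjusted p = 2.04e-06). Both were under 10 counts in each vehicle library, so they were tested only because they were high with DOX. In the other direction Wnt8a, which encodes a Wnt ligand of the primitive streak and was tested only through the vehicle libraries, had 11 and 14 counts with vehicle and 0 in both DOX libraries, at least 7.8-fold lower against a floor of 3 counts over the group, with an exact 95% lower limit of 5.89-fold for counting error (edgeR adjusted p = 0.0258). Its call was lost without the filter (edgeR adjusted p = 0.0621), with DESeq2 (adjusted p = 0.0544) and without DOX replicate 1 (edgeR adjusted p = 0.269) or DOX replicate 2 (edgeR adjusted p = 0.279).

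Gene lists were read as counts of members called, beside 3.63% rising and 2.39% falling among all genes tested. Polycomb genes were examined first. Of 30 tested subunits of variant PRC1, Rybp alone was called, with 9 at an unadjusted p under 0.05 (18.8% of all genes tested were), and of 10 subunits of canonical PRC1 none was called, with 1 at an unadjusted p under 0.05. Kdm2b, Tfdp1 and Mga lay near the threshold, at log2 fold changes of -0.17, -0.17 and 0.16 with edgeR adjusted p of 0.0554, 0.0509 and 0.0571, and all 3 were called without the filter on low counts. Without vehicle replicate 1, 7 variant PRC1 subunits were called (2 up, 5 down), and without vehicle replicate 2, 5 were (3 up, 2 down). Among 12 PRC2 genes 3 rose and 3 fell, all by less than 0.5 on the log2 scale. These were Ezh1, at 0.43, Aebp2, at 0.25, and Rbbp7, at 0.19, against Epop (listed as E130012A19Rik), at -0.37, Eed, at -0.20, and Jarid2, at -0.14. Of the 6, only Epop was called without each library in turn. Of 18 genes of WDR5 and the COMPASS methyltransferase complexes 2 fell. Setd1b, which encodes a catalytic subunit, fell from 93.7 and 91.8 CPM to 68.7 and 63.3 CPM (edgeR adjusted p = 1.41e-05). Rbbp5 fell by 0.23 on the log2 scale, and its call was lost without either DOX library. Wdr5 stood at 443 and 458 CPM with vehicle and at 452 and 442 CPM with DOX.

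Pluripotency genes were examined next. Of 23 core and naive pluripotency genes, Dppa5a rose by 0.16 on the log2 scale and Sall4 fell by 0.16, and neither was called without each DOX library in turn. The count of 2 called members became 8 (4 up, 4 down) without vehicle replicate 1 and 11 (4 up, 7 down) without vehicle replicate 2, and 10 of the 23 had an unadjusted p under 0.05. Nanog stood at 492 and 532 CPM with vehicle and 470 CPM in both DOX libraries (log2 fold change -0.12 ± 0.05, edgeR adjusted p = 0.118). For Pou5f1 the log2 fold change was -0.11 ± 0.04 (edgeR adjusted p = 0.136), and for Sox2 -0.04 ± 0.04 (edgeR adjusted p = 0.714). The list's median was -0.04. Of 9 Hox genes, 17 cholesterol synthesis genes and 19 enhancer coactivator genes that were tested none was called by edgeR, where 1, 0 and 3 had an unadjusted p under 0.05, and of 14 developmental transcription factor genes Nkx6-2 fell.

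Lineage and other lists held the following calls. Of 9 neural genes, Tubb3, Gbx2 and Map2 fell by 0.59 to 0.64 on the log2 scale and Msi1 rose by 0.68. Of 14 primitive endoderm genes, the laminin genes Lamc1 and Lamb1 rose by 0.29 and 0.32, while Col4a1 and Col4a2 fell. In each of these lists a call was lost without at least 1 library. Of 14 genes of the formative and primed states, Dnmt3b rose, and Tcf15 and Etv4 fell by 0.51 and 0.26. Of these only Dnmt3b was called without each library in turn. Of 12 mitochondrially encoded genes, mt-Nd2, mt-Cytb and mt-Nd1, which encode respiratory chain subunits, rose by 0.49, 0.32 and 0.23, and all 3 were called without each library in turn. Of 23 imprinted genes Mest fell by 0.62 and Phlda2 rose by 0.42.

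Signalling genes were read list by list. Of 11 Wnt feedback genes Wnt8a fell, and of 11 BMP and Id genes Bmpr1a fell, with no rise in either list. Neither was called without each library in turn. In the FGF and ERK feedback list 4 of 14 genes fell and 1 rose, while the median log2 fold change of the list was 0.10. Dusp6, the ERK phosphatase gene, went from 95.5 and 92.2 CPM to 58.3 and 59.9 CPM (log2 fold change -0.67 ± 0.07, edgeR adjusted p = 5.49e-08). Myc went from 59.8 and 57 CPM to 41.3 and 42.6 CPM (log2 fold change -0.48 ± 0.08, edgeR adjusted p = 0.000219). These 2 were called without each library in turn. Spry2 and Spry4, feedback inhibitors of receptor signalling, fell by 0.31 and 0.21 on the log2 scale and were each lost without either DOX library. Egr1, an immediate early gene, rose by 0.31, and its call was lost without DOX replicate 1.

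In the Nodal list 2 of 10 genes rose and none fell. They were the secreted Nodal inhibitors Lefty1, from 15.7 and 13 CPM to 30.2 and 32.1 CPM (log2 fold change 1.12 ± 0.12, edgeR adjusted p = 5.17e-08), and Lefty2, from 50.8 and 47 CPM to 68.3 and 71.6 CPM (log2 fold change 0.52 ± 0.08, edgeR adjusted p = 3.42e-05). Of 17 genes of LIF and STAT3 signalling, Pim1, a STAT3 target kinase gene, rose by 0.48 and Gbx2, a STAT3 target homeobox gene, fell by 0.64 on the log2 scale. Both were called without each library in turn.

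DNA methylation genes included Dnmt3b, the de novo methyltransferase gene that rises as cells leave the naive state, at 180 and 178 CPM with vehicle and 263 and 268 CPM with DOX (log2 fold change 0.57 ± 0.05, edgeR adjusted p = 2.46e-09). Tet2, which encodes a 5-methylcytosine dioxygenase, went from 318 and 338 CPM to 268 and 261 CPM (log2 fold change -0.31 ± 0.05, edgeR adjusted p = 8.96e-05). Both were called without each library in turn, and with Uhrf1, which rose by 0.16, 2 of 9 genes of the list rose and 1 fell.

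Of 20 p53 genes 4 rose and none fell, among them Cdkn1a, which encodes the cell cycle inhibitor p21, from 35.7 and 33.7 CPM to 49.6 and 49.8 CPM, and Pmaip1, which encodes NOXA, from 31.2 and 32.7 CPM to 45 and 46.2 CPM. Of 22 targets of ATF4 in the integrated stress response 5 rose and none fell. Ddit4, an inhibitor of mTORC1, rose by 0.65 on the log2 scale, Pck2 by 0.51, and the serine synthesis gene Psat1 by 0.31. Without DOX replicate 1 or without DOX replicate 2, 2 p53 genes and 3 ATF4 targets were called as rises. Without vehicle replicate 1 the rises were 7 and 8, and without vehicle replicate 2 they were 9 and 6, with at most 2 falls in either list.

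**Figure D3:**
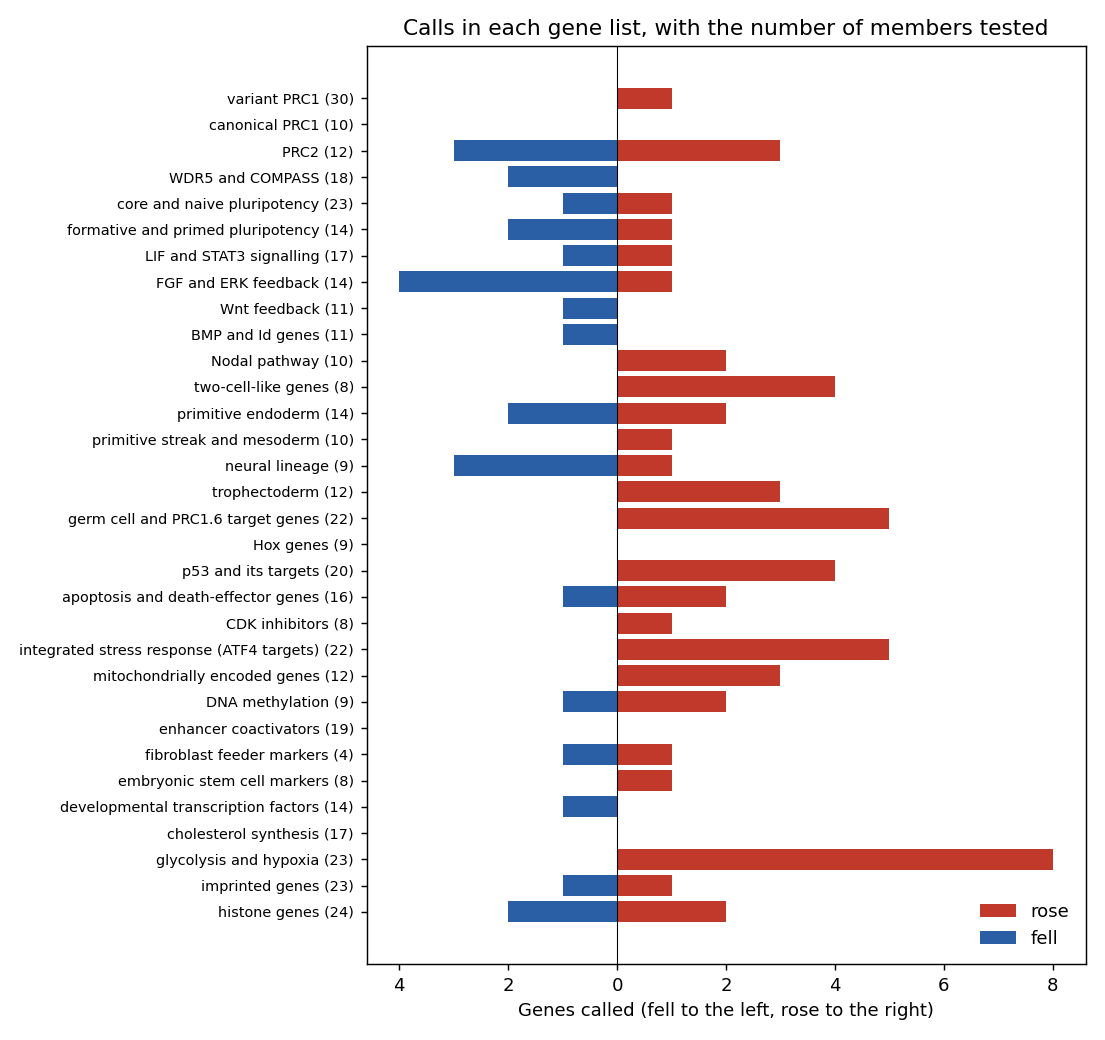
Number of genes called in each list, with rises to the right in red and falls to the left in blue, and with the number of members tested beside each name. Glycolysis and hypoxia shows 8 rises of 23, and canonical PRC1, Hox, enhancer coactivator and cholesterol synthesis genes show none in either direction.

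Germ cell genes, many of which carry the variant complex with PCGF6, included 5 rises and no fall among 22 tested, with a median log2 fold change of 0.37. Smc1b, the meiotic cohesin gene, went from 5.18 and 4.72 CPM to 11.4 and 11 CPM (log2 fold change 1.18 ± 0.18, edgeR adjusted p = 2.35e-05). Stag3, another meiotic cohesin gene, went from 44.6 and 42.3 CPM to 54.5 and 58.6 CPM (log2 fold change 0.38 ± 0.08, edgeR adjusted p = 0.00383). Tuba3a rose by 1.05, Zcwpw1 by 0.43 and Rpl10l by 0.39 on the log2 scale. Without DOX replicate 2, 2 genes of the list were called.

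The windows of the cohesin genes are shown with the letters searched in capitals on either strand: CACGTG, the E-box that MGA and MAX bind, and TCCCGC, a core that E2F6 reads (Smc1b, chr15:84962338-84962637, minus strand, and Stag3, chr5:138721487-138721786, plus strand, mm9, RefSeq starts).

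Smc1b: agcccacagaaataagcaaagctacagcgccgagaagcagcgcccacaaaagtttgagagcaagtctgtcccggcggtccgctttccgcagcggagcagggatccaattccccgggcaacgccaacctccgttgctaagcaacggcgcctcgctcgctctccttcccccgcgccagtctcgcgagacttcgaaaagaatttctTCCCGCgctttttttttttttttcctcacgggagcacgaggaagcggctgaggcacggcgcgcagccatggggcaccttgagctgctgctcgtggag

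Stag3: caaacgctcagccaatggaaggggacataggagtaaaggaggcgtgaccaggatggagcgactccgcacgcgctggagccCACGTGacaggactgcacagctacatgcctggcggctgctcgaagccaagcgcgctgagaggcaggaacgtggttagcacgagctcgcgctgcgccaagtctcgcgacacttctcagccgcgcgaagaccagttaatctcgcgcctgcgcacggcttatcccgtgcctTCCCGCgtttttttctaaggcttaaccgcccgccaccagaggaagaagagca

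TCCCGC begins 47 bases before the start of Smc1b and 2 bases before that of Stag3, and CACGTG 170 bases before that of Stag3. In windows taken at the outermost GENCODE start, which for Stag3 lies further upstream, CACGTG was in 11 of 22 tested germ cell genes and in 0 of the 5 that rose, against 9.42% of all tested genes. TCCCGC was in 11 of the 22 and in 4 of the 5, against 33.2%. RING1B peaks lay over start sites of Smc1b, at 16.3-fold, and Stag3, at 14.7-fold, in shEV ESCs.

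In the glycolysis and hypoxia list 8 of 23 genes rose and none fell. The changes were small. Ldha, the lactate dehydrogenase A gene, went from 1345 and 1272 CPM to 1515 and 1520 CPM (1.16-fold, edgeR adjusted p = 0.000235), and Pgk1, the phosphoglycerate kinase gene, from 899 and 898 CPM to 1019 CPM in both DOX libraries (1.13-fold, edgeR adjusted p = 0.00271). Pfkp, Aldoa, Pkm, Eno1, Gapdh and Hk1 rose by 0.11 to 0.22 on the log2 scale. Without either DOX library none of the 23 was called, without vehicle replicate 1 there were 11 rises, without vehicle replicate 2 there were 10 rises and 1 fall, and DESeq2 kept Ldha, Pgk1, Aldoa and Pfkp. The median log2 fold change of the list was 0.12. Ldhb, which encodes the other lactate dehydrogenase subunit and was in no list, went from 108 and 98.9 CPM to 196 and 203 CPM (log2 fold change 0.94 ± 0.06, edgeR adjusted p = 6.45e-13).

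The windows of Ldha (chr7:54100924-54101223, plus strand) and Pgk1 (chrX:103382189-103382488, plus strand) are shown, for Ldha the first of 2 RefSeq start windows, with ACGTG, the core of the hypoxia response element, in capitals on either strand (mm9, RefSeq starts). Where CACGTG stands, the core is on both strands, and the other window of Ldha held 0 matches.

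Ldha: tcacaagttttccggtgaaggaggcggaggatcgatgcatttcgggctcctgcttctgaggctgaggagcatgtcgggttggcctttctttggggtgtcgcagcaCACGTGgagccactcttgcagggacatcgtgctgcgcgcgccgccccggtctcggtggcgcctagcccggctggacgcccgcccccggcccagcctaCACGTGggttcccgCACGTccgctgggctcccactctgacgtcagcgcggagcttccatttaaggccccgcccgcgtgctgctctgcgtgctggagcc

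Pgk1: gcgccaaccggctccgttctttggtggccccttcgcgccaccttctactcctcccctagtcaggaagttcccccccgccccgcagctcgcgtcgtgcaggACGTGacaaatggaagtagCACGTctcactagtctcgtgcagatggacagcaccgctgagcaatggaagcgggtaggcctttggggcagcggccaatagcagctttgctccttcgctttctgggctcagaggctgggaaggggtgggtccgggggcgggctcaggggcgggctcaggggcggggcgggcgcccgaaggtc

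Counts were made in windows at the outermost GENCODE start, which for Ldha lies upstream of the window shown, so that window was not the one counted. There ACGTG was in 11 of the 23 tested genes of the list and in 2 of the 8 that rose, against 24.5% of all tested genes. The sequence that YY1, the namesake partner of RYBP, is known to bind was searched as GCCATNTT on either strand. It was in 25 of 542 genes that rose (4.61%, 95% Wilson interval 3.14% to 6.72%), in 15 of 357 that fell (4.2%, 2.56% to 6.82%) and in 7.89% of all tested genes (7.47% to 8.34%).

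Chromatin at the start sites of the responding genes was described from peak lists of other ESC lines of the series, called by the authors on merged replicates for H3K4me3, H3K27ac, WDR5 and RING1B in Tet.Rybp.Stat3 ESCs and on 1 sample each for STAT3 and for RING1B in shEV ESCs, so no peak comes from Tet.RYBP ESCs. RING1B, the catalytic partner of RYBP, lay over a start site of 67.2% of the genes that fell (240 of 357, 95% Wilson interval 62.2% to 71.9%) in shEV ESCs. The share was 56.3% of the genes that rose (52.1% to 60.4%) and 51% of all tested genes (50.2% to 51.8%). In uninduced Tet.Rybp.Stat3 ESCs the shares were 77.6%, 67.9% and 65.7% in the same order. The fall group was highest in both lists, and its RING1B peaks were also the higher ones, with a median enrichment in shEV ESCs of 6.85-fold against 5.26-fold for rises and 4.92-fold for all tested genes.

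H3K27ac, the mark of active promoters and enhancers, lay over fewer of the genes that fell in Rybp+/+ ESCs, at 57.4% of them (52.2% to 62.4%), against 70.5% of genes that rose (66.5% to 74.2%) and 66.2% of all. STAT3 peaks lay over 36 of 357 genes that fell (10.1%, 7.37% to 13.6%), 16 of 542 that rose (2.95%, 1.83% to 4.74%) and 5.43% of all. H3K4me3 lay over 88.9% of rises and 91.6% of falls, beside 85.7% of all, and WDR5 over 60.1% and 56%, beside 59.5%. The intervals cover counting error over genes only, and no test was made.

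**Figure D4:**
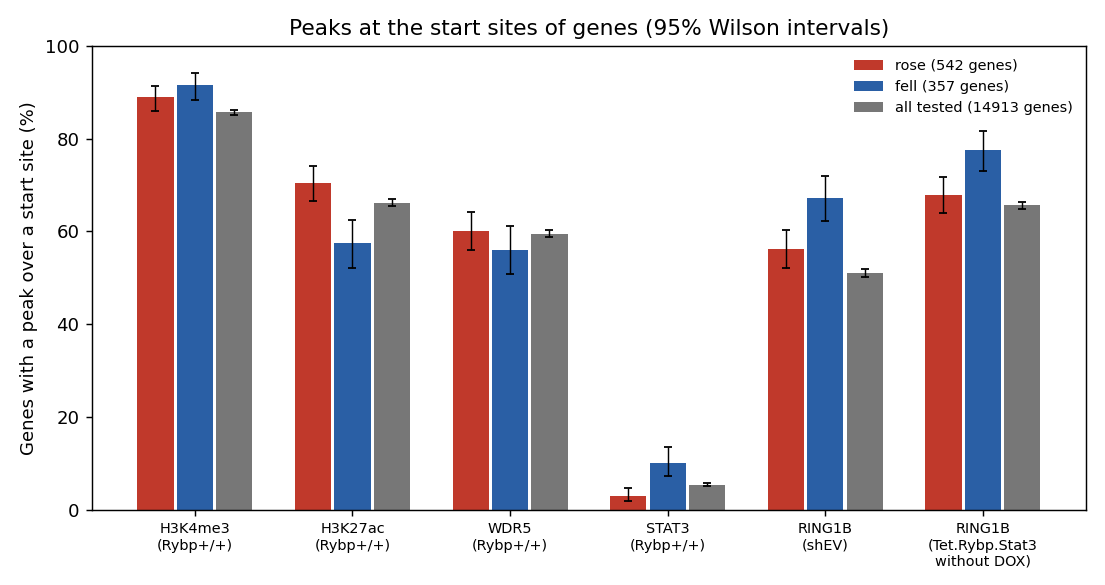
Percent of genes with a peak over a start site, for genes that rose (red), genes that fell (blue) and all tested genes (grey), in the peak lists of other ESC lines, with 95% Wilson intervals. Genes that fell have the largest RING1B and STAT3 shares, 67.2% and 10.1%, and the smallest H3K27ac share, 57.4%.

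The opposite manipulation was compared next. In Rybp-floxed ESCs of the series, Rybp-/- cells (made with 5 µM 4-OHT for 4 days) had 24.8 and 25 CPM of Rybp and Rybp+/+ cells 110 CPM in both replicates (log2 fold change -2.15 ± 0.05). The comparison uses another line, another table and no common control sample. Of 541 rises tested in both tables, 242 (44.7%) were lower in Rybp-/- ESCs, beside 25.7% of all genes tested in both, and 142 (26.2%) were higher, beside 22.5%. Of 355 falls, 176 (49.6%) were higher in Rybp-/- ESCs and 67 (18.9%) were lower. Of the genes called without each Tet.RYBP library in turn, 56 of 151 rises (37.1%) were lower and 53 (35.1%) higher in Rybp-/- ESCs, while 51 of 82 falls (62.2%) were higher and 12 (14.6%) lower.

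The difference between both responses was tested gene by gene as an interaction, and 4446 of 17320 genes (25.7%) passed, or 28.8% of the genes tested in Tet.RYBP ESCs. Because the called genes were chosen in the same Tet.RYBP libraries, the sign of the difference is largely set by that choice, and it is not counted over them. After Rybp, the lowest adjusted p among called genes were those of Lima1, Emp1, Ldhb, Dnmt3b and Ddit4. Lima1, which encodes the actin-binding protein EPLIN, went from 90.7 and 100 CPM to 219 and 206 CPM with DOX (log2 fold change 1.16 ± 0.06) and had a log2 fold change of -0.65 ± 0.03 in Rybp-/- ESCs (edgeR adjusted p of the difference 9.31e-14). Emp1, a membrane protein gene, fell by 0.51 with DOX and rose by 1.59 in Rybp-/- ESCs. Ldhb, Dnmt3b and Ddit4 rose with DOX and had log2 fold changes of -0.73, -0.64 and -0.97 in Rybp-/- ESCs.

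Of the 12 named falls, 7 were higher in Rybp-/- ESCs, among them Ccnd2, Islr2, She and Col4a2 at log2 fold changes of 0.92 to 1.01. Atcay was lower in both (-1.44 in Rybp-/- ESCs), and Dgkk, Mark1, Ociad2 and mt-Tp were not called there. All 8 glycolysis genes that rose with DOX were lower in Rybp-/- ESCs, where 18 of the 23 genes of that list were lower and 2 higher. The 4 p53 genes and the 3 mitochondrially encoded genes that rose with DOX were higher in Rybp-/- ESCs, where 11 of 20 genes of the p53 list were higher and 5 lower, and 8 of 12 mitochondrially encoded genes were higher and none lower. The 5 germ cell genes that rose with DOX divided, with 2 higher and 3 lower there, where 15 of 22 genes of that list were higher and 3 lower. Ranked by the fold change with DOX alone, the called genes with the opposite call in Rybp-/- ESCs were led, predicted models left out, by genes of few counts, namely Styk1, Fam38b, Layn, Apba2, Ntn3 and Timp2, which fell by 2.20 to 4.27 on the log2 scale with DOX. Styk1 had 66 counts with vehicle and 3 with DOX, a ratio of 20.6 with an exact 95% interval from 6.74 to 102 for counting error alone. Styk1, Fam38b and Layn had under 10 counts in both DOX libraries and were tested only because they were high with vehicle. Of these 6, only Ntn3 was called without each library in turn.

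Of 81 rises of at least 1 on the log2 scale that were tested in both tables, 38 (46.9%) were also higher in Rybp-/- ESCs, beside 22.5% of all genes, and 16 (19.8%) were lower, beside 25.7%. Of these 81, 15 had under 10 counts in both vehicle libraries and were tested only because they were high with DOX, and without them (chosen after seeing the data) 28 of 66 (42.4%) were higher and 16 (24.2%) lower. Of 52 falls of that size, 26 (50%) were higher there and 1 was lower. Of these 52, 11 had under 10 counts in both DOX libraries and were tested only because they were high with vehicle. Without them 21 of 41 (51.2%) were higher and 1 (2.44%) lower. Of the 12 named rises, 5 (Duox1, Gpr56, Aim2, Ap3b2 and Shf) were higher in Rybp-/- ESCs, 2 (Rybp and Cdh3) were lower and 5 were not called. Of the 38 shared rises, 13 were higher there by at least 4 on the log2 scale, namely the 3 Zscan4 genes and 10 predicted models. Of the 13, 9 had fewer than 10 counts in both vehicle libraries and passed the filter through the DOX libraries. Zscan4c was at 0.102 and 0.0373 CPM in Rybp+/+ and at 20.6 and 20.7 CPM in Rybp-/- ESCs (log2 fold change 8.19 ± 0.19). Duox1 was at 0.382 and 0.298 CPM in Rybp+/+ and at 2.01 and 2.13 CPM in Rybp-/- ESCs, and the difference between its responses did not pass (-0.39 on the log2 scale, edgeR adjusted p = 0.343).

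**Figure D5:**
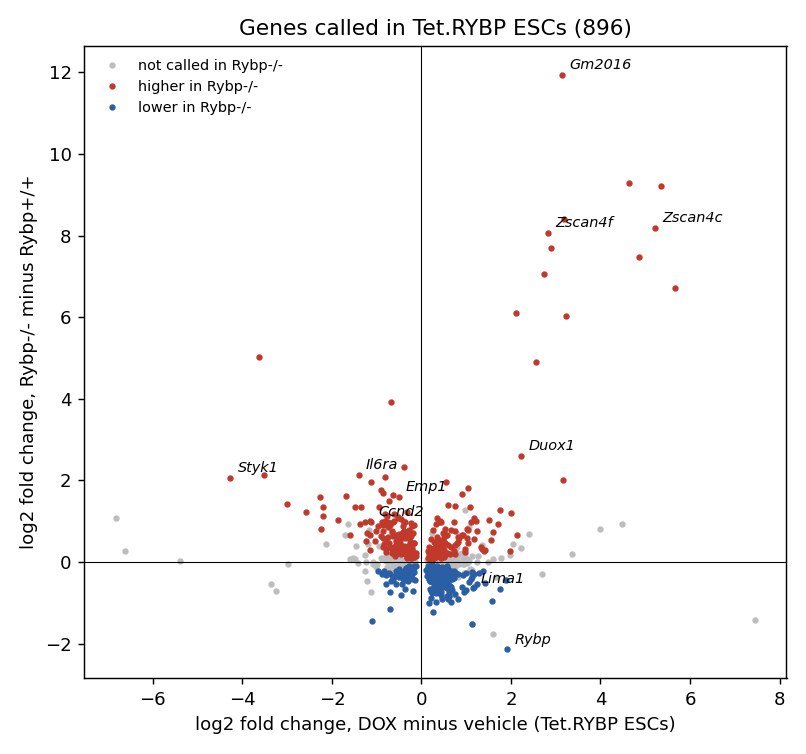
Log2 fold change in Rybp-/- against Rybp+/+ ESCs plotted against the log2 fold change with DOX in Tet.RYBP ESCs, for the 896 genes called with DOX and tested in both, with red for higher, blue for lower and grey for not called in Rybp-/- ESCs. Of 355 falls 176 were called higher and 67 lower, rises are spread on both sides (242 lower, 142 higher), and the Zscan4 genes lie at the upper right.

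The rTRS line, labelled with a DOX-induced Rybp_Stat3 integration, was the other line with RNA-seq of samples that received DOX. In the libraries labelled rTRS, Rybp was at 113 and 110 CPM without DOX and 102 and 99.8 CPM with it (log2 fold change -0.15 ± 0.06, edgeR adjusted p = 0.0762), and Stat3 at 159 and 172 CPM and at 191 and 188 CPM (log2 fold change 0.20 ± 0.06, edgeR adjusted p = 0.0259). The Rybp counts thus do not bear out its label, so each direction given for rTRS is that of libraries labelled DOX against libraries labelled NTC, and would turn if those labels were exchanged. One of its DOX columns carries a prefix that the labels do not explain. The response was broad, with 23% of 16291 genes higher and 20.4% lower.

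Of 537 rises in Tet.RYBP ESCs tested in both, 215 (40%) were also higher in the libraries labelled DOX of rTRS, beside 23.7% of all genes tested in both, and 158 (29.4%) were lower, beside 22.3%. Of 354 falls, 143 (40.4%) were also lower and 87 (24.6%) higher. As an interaction, 4885 of 16864 genes (29%) differed between the lines, 31.8% of the genes tested in Tet.RYBP ESCs, and with the rTRS labels exchanged 5080 did. By the same labels, 6 of the 12 named rises were higher in rTRS, among them Tfap2a, Cdh3, Gpr56 and Rapgef4 at log2 fold changes of 1.37 to 2.99. Spink10 and Aim2 were lower there, at -3.52 and -0.80, and 4 were not called. Zscan4c, Zscan4e and Zscan4f were lower in rTRS, at -0.76, -0.82 and -1.10, and all 5 germ cell genes that rose in Tet.RYBP ESCs were lower there.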

How the data were processed

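The authors deposited raw counts per gene (submitters' processing notes: Trim Galore, STAR, HTSeq, mm9). The table held 0 rows that name no gene. Genes were tested with edgeR 4.0.16 (R 4.3.3): TMM scaling, filterByExpr, quasi-likelihood F test on the 4 Tet.RYBP libraries, Benjamini-Hochberg over all genes tested. SE is the absolute log2 fold change over the root of F. The rTRS and Rybp knockout tables were fitted alike, and differences in response as interactions. CPM use TMM-scaled totals. A simulation of this comparison with 200 changed genes recovered 60% of 1.5-fold, 79.6% of 2-fold and 92% of 4-fold rises and 66% of 0.5-fold falls, with 10 false calls of 156. Alternatives were other scaling, filters, DESeq2 1.42.0, a replicate block and leaving out each library. Peaks are the authors' MACS2 calls, deposited with a fold enrichment over background, and counted when they overlapped a GENCODE vM1 start site by 1 base. Promoter sequences come from RefSeq (GRCm38.p6) and were located in mm9 by exact match. Named genes are Rybp, Yaf2, Stat3, the 12 largest rises and falls, up to 6 genes per list and those with the strongest differences between lines. Members and lists were chosen with earlier results of these data known. Transcript-level expression was not analysed here.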

Additional observations from a re-analysis of the deposited data

Results flagged for a closer look

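The response of Tet.RYBP ESCs to DOX differed from that of rTRS ESCs for 4885 genes and from that of Rybp-/- ESCs for 4446 genes by the interaction test of edgeR (adjusted p under 0.05). In the comparison with rTRS, whose directions rest on the labels DOX and NTC that its Rybp counts do not bear out, the log2 differences of the genes named were 2.76 for Spry4, 2.24 for Spp1, 2.09 for Rybp and 2.92 for Inhbb, which had the higher response in Tet.RYBP ESCs, and -3.90 for Arl4c and -3.34 for Kif1a, which had the lower. Of these, Spry4, Arl4c and Kif1a were lost as calls in Tet.RYBP ESCs without at least 1 library. With the rTRS labels exchanged (chosen after seeing the data), 5080 genes differed, and the differences became -3.19 for Spry4, -1.18 for Spp1, 1.73 for Rybp, -3.72 for Inhbb, 5.01 for Arl4c and 1.77 for Kif1a, so that of these 6 Rybp alone kept its sign.

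In the comparison with Rybp-/- ESCs, the log2 differences were 4.05 for Rybp, 1.79 for Lima1, 1.66 for Ldhb, 1.61 for Ddit4, 1.20 for Dnmt3b and -2.12 for Emp1. Genes of few counts differed by -6.38 for Styk1, -4.44 for Fam38b, -3.89 for Apba2, -3.84 for Layn, -3.55 for Timp2 and -3.07 for Ntn3. These were picked by the fold change with DOX among genes with opposite calls, so the sign of their difference was set by that choice. Styk1, Fam38b and Layn were tested only because they were high with vehicle. The lines, tables and agents also differ between these comparisons, and their part in the differences was not tested.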

How the results depend on the processing

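The rise of Rybp kept its direction and its call under every alternative, with log2 fold changes from 1.86 to 1.97 when 1 library was left out. The count of called genes was 905 with DESeq2 size factors, 974 without a filter, 964 with a filter of 1 CPM in 2 libraries and 718 with DESeq2, of which 709 were among the 899. With the replicate block it was 1211 and held all 899. Same-numbered libraries did not deviate together (correlation of deviations -0.02 over 14937 genes), so no pairing by number was seen over all genes. Pairing in smaller sets of genes was not tested. Leaving out 1 library gave 406 to 1566 calls, with 239 to 925 rises and 166 to 641 falls. A log2 fold change of at least 1 left 135 genes, 82 rises and 53 falls. Differences from rTRS ranged from 3842 to 4565 genes when 1 Tet.RYBP library was left out, with 4461 without rTRS DOX replicate 2 and 5080 with the rTRS labels exchanged (both chosen after seeing the data), 4859 with DESeq2 size factors, 5113 without a filter and 5958 with the replicate block. Differences from the knockout ranged from 3781 to 5055, with 4456, 4555 and 4433 under those settings. Over 165 genes, no fold change was reversed. Where 1 library was left out, 104 of 658 values lost their call and 26 gained one, and otherwise 16 of 813 lost it and 22 gained it. A chi-square of counts over genes was larger between the vehicle libraries (8.68 per degree of freedom) than between the DOX libraries (4.25). The cause of the changed calls was not tested. With 2 libraries a group, small changes rest on the spread shared across genes.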
